A study of Mus musculus with 4 samples.

Results

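The genes described here are 36 acute phase proteins, hepatic serpins and their cytokine regulators, followed on arrays of mouse liver RNA. They were chosen by name: every probe that the array files assign to one of the 36 gene symbols was taken, whatever its signal. Of the 36 genes, 35 had a probe and Serpina1a had none. The 35 genes were read by 42 of the 41174 probes on the array, and 7 of them by more than 1 probe. The study concerns a Lactobacillus from ostrich given to mice, and its arrays hold 4 livers, each from a separate mouse: 2 labelled control (replicates 1 and 2) and 2 labelled LB1 (replicates 1 and 2). All 4 mice were female, of the strain labelled BALBc, and livers were taken 20 days after inoculation. The titles of the LB1 samples call the mice "stuff". The labels name no age, do not say what LB1 stands for, and do not say what the control mice received.

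Acute phase proteins are plasma proteins that hepatocytes make in larger or smaller amounts during infection or injury. Interleukin-6, acting through its receptor and the transcription factor STAT3, and interleukin-1, acting through NF-kB and the C/EBP factors, are the classical inducers in liver. Positive members such as serum amyloid A, haptoglobin and the orosomucoids are known to rise in such a response, while negative members such as albumin and transthyretin are known to fall. In the mouse, serum amyloid P (Apcs) is the major acute phase pentraxin and C-reactive protein (Crp) responds little. Serpins are a family of protease inhibitors and carriers, many of which the liver secretes.

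Brightness differed between the groups over the whole array. Processed signals reached a 75th percentile of 410.9 and 414.7 on the control arrays and of 146.9 and 80.8 on the LB1 arrays, a gap of 1.92 on the log2 scale. Values below are therefore log2 processed signals minus the 75th percentile of the same array, called the scaled level, and a difference is LB1 minus control. Arrays of a group correlated at 0.989 for control and 0.973 for LB1 over probes, and arrays of different groups at 0.906 to 0.95. Of 22957 probes tested, limma called 4406 higher in LB1 (19.2%) and 3027 lower (13.2%) at an adjusted p under 0.05. That split depended on the scaling: quantile normalization gave 2514 higher and 3979 lower, scaling to the array median 1650 and 7116, another background correction (normexp) 11343 and 4640, and the series table's own values 10685 and 3758. The median of all tested probes was 0.16, and it was −0.09, −0.47, 0.44 and 0.44 under those settings.

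In the LB1 livers 7 of the 35 genes had a probe called lower (limma, adjusted p under 0.05). They were the interleukin-6 receptor (Il6ra), both pentraxins (Apcs and Crp), the metalloreductase Steap4, the inter-alpha-trypsin inhibitor heavy chain Itih1, and the serpins Serpina3n and Serpina10. Serpina10 was called with only 1 of its probes. With 1 probe per gene, 7 of the 35 were called lower and 5 higher, beside 10.0% and 22.0% of all 15809 genes tested. Stat3 was the only gene with a probe within the scanner's range that was called higher. None of the serum amyloid A or orosomucoid genes passed the test in either direction, though some did under other limma settings, as given below. Of the 41 member probes tested, 9 were called lower and 6 higher, against 13.2% and 19.2% of all tested probes. Of the 6 higher calls, 5 were on saturated probes. Of the 10 member probes saturated on at least 1 array, 5 were called higher and 0 lower (limma, adjusted p), and their differences lay between 0.15 and 1.92. Over the whole array 266 tested probes were saturated on at least 1 array. The calls were 4406 higher and 3027 lower with these 266 counted, and 4246 and 3017 with them left out of the count. Of the 31 member probes saturated on no array, which read 26 genes, 9 were called lower (29.0%, against 13.3% of all such probes) and 1 higher (3.23%, against 18.7%). Both LB1 livers lay below both control livers for 13 of the 31 and above for 6, and 12 overlapped; over all unsaturated probes 32.6% lay below and 43.4% above. The median difference of the 31 was −0.35, beside 0.15 for all unsaturated probes, and that of all 41 was −0.12, beside 0.16. Over all 41 the sign turned without control replicate 2 (0.088), with 1 probe per gene (0.15) and within replicate number 1 (0.031). After quantile normalization 11 member probes were called lower and 1 higher, where 17.3% and 11.0% of all tested probes were.

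The calls rest on both control arrays. Without control replicate 1, limma called 125 probes higher and 14 lower over the whole array and 0 and 0 among the members, of which 5 were higher and 11 lower at an unadjusted p under 0.05. Without control replicate 2 it called 0 and 1 over the array and 0 and 0 among the members, with 6 higher and 7 lower unadjusted. Without LB1 replicate 1 the member median was −0.055, beside 0.12 over all tested probes. Without LB1 replicate 2 it was −0.16, beside 0.20. Each of these fits leaves 1 group with a lone liver, which is assumed to vary like the pair of the other group. The methods' t-test called 0 members after Benjamini-Hochberg adjustment, with 6 higher and 6 lower at an unadjusted p under 0.05. An exact permutation test of a single value over these 4 arrays has 6 assignments and cannot go below 0.333. In bulk liver, fewer cells of a type and less RNA per cell cannot be told apart.

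**Figure D1:**
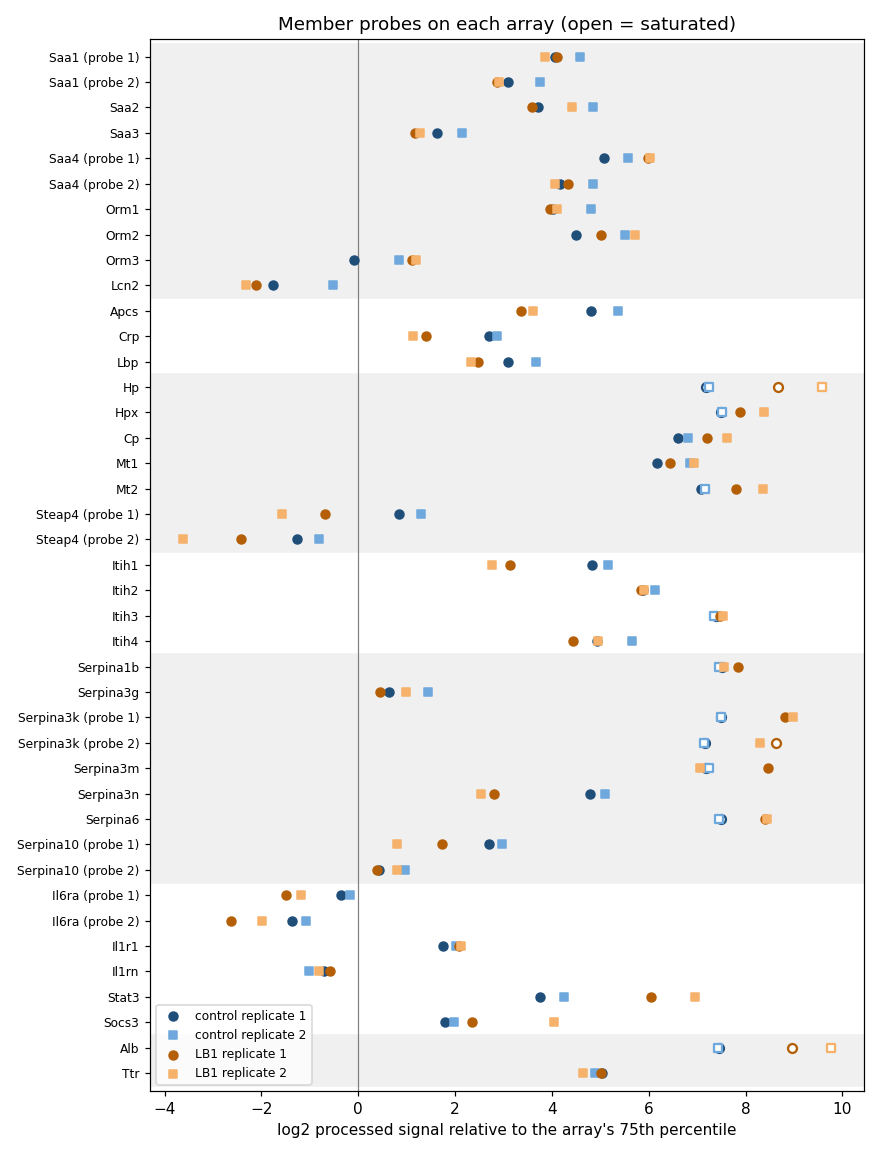
Scaled level (log2 processed signal relative to the 75th percentile of the array) of the 41 tested member probes on each of the 4 arrays, with open symbols where the probe was saturated and shaded bands separating the functional groups. For Serpina3n, Itih1, Apcs, Crp, Steap4 and Il6ra both LB1 arrays lie left of both control arrays, and for Stat3 both lie right of them.

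Il6ra, the receptor chain that binds interleukin-6 and starts the signal to the acute phase genes, was read by a pair of probes, at chr3:89680743-89680802 and chr3:89690491-89690550 on the minus strand (mm9, the build of the files). Their sequences are shown because they are separate readings of the same transcript with nearly the same difference in the main limma fit.
Il6ra probe 1: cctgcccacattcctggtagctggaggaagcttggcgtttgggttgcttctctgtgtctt
Il6ra probe 2: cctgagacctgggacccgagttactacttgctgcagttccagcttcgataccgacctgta
The first had scaled levels of −0.36 and −0.17 in the control livers and −1.49 and −1.18 in the LB1 livers, a difference of −1.07 (SE 0.24, adjusted p = 0.0314). The second had −1.37 and −1.08 against −2.62 and −2.0, a difference of −1.08 (SE 0.30, adjusted p = 0.0489). Both LB1 livers lay below both control livers with each probe, and the fold was 2.10 and 2.11. Within replicate number 1, whose arrays share a slide, the first probe differed by −1.13 and the second by −1.25, and within replicate number 2 by −1.01 and −0.91. With the normexp correction neither passed, at −0.31 (adjusted p = 0.0598) and 0.16 (adjusted p = 0.356), so the direction of the second probe turned. With the series table the first gave −0.53 (adjusted p = 0.0374) and the second −0.17 (adjusted p = 0.517). Quantile normalization gave the second −1.32 (adjusted p = 0.0599). Over the other limma settings that used all arrays, the first was called lower in 9 of 10 and the second in 6 of 9. Before scaling the second read 158.9 and 195.6 on the control arrays and 23.9 and 20.3 on the LB1 arrays. Without LB1 replicate 1 the second probe gave −0.77 (adjusted p = 0.0616).

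Stat3, the transcription factor that carries the interleukin-6 signal to the nucleus, had scaled levels of 3.76 and 4.25 in the control livers and 6.05 and 6.95 in the LB1 livers. The difference was 2.49 (SE 0.39, adjusted p = 0.0219), a 5.64-fold higher level. Within replicate number 1 it was 2.29, and within replicate number 2 it was 2.70. The probe, at chr11:100749598-100749657 on the minus strand (mm9), is printed 10 times on each array, and the log2 signals of the 10 spots had an SD of 0.0243 to 0.0549, which measures spots of 1 array and not the spread between mice. Before any scaling it read 5562 and 7896 on the control arrays and 9714 and 9994 on the LB1 arrays. Stat3 was the only one of the 31 unsaturated member probes whose unscaled signal was higher on both LB1 arrays, and the other 30 were lower on both. Over all unsaturated tested probes, 1.97% were above and 87.7% below in this way.

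Socs3, the feedback inhibitor that STAT3 induces, did not pass the test. Its scaled levels were 1.80 and 1.98 in the control livers and 2.34 and 4.05 in the LB1 livers, a difference of 1.30 (SE 0.58, adjusted p = 0.137). The LB1 livers lay above the control livers but were far apart from each other. Without LB1 replicate 1, which leaves a lone LB1 liver, the difference was 2.16. The interleukin-1 receptor Il1r1 differed by 0.21 (SE 0.22, adjusted p = 0.492). The interleukin-1 receptor antagonist Il1rn differed by 0.16 (SE 0.24, adjusted p = 0.621) with its brighter probe. Its other probe was well above background on control replicate 1 alone and was the 1 member probe not tested.

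**Figure D2:**
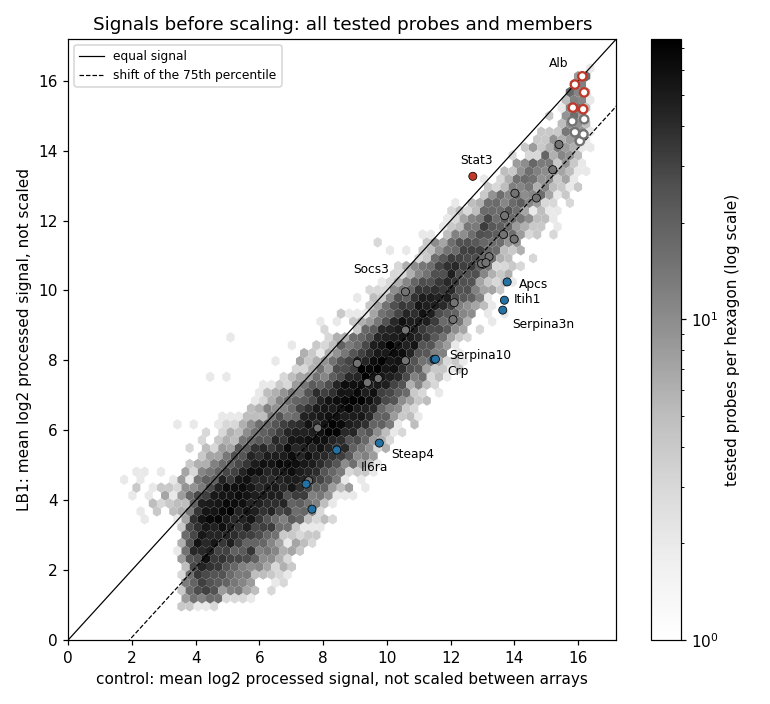
Mean log2 processed signal of the control arrays (horizontal axis) and the LB1 arrays (vertical axis) before any scaling between arrays, for all 22957 tested probes (grey hexagons, darker with more probes) and the member probes (circles, red for called higher, blue for called lower, grey for neither, open where saturated on at least 1 array). Stat3 lies above the line of equal signal, and the blue members lie below the dashed line that marks the 1.92 shift of the 75th percentile.

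Both pentraxins fell. These are pattern recognition proteins built as rings of like subunits, and they bind bacterial surfaces and damaged cells. Apcs was read at chr1:174824959-174825018 and Crp at chr1:174629452-174629511 (mm9). The probe of Apcs is shown because it opens with an ATG, in capitals.
Apcs probe: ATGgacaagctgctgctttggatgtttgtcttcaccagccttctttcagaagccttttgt
Apcs had scaled levels of 4.80 and 5.36 in the control livers and 3.35 and 3.60 in the LB1 livers. The difference was −1.61 (SE 0.28, adjusted p = 0.0238), a 3.04-fold lower level, with −1.45 within replicate number 1 and −1.76 within replicate number 2. Crp had 2.70 and 2.87 against 1.40 and 1.12, a difference of −1.53 (SE 0.23, adjusted p = 0.0218) and a 2.88-fold lower level. Within the replicate numbers it differed by −1.30 and −1.75. For both genes the control and LB1 livers did not overlap. Lbp, the lipopolysaccharide binding protein that hands bacterial lipid to CD14, had 3.09 and 3.68 against 2.47 and 2.33. Its difference of −0.98 (SE 0.28, adjusted p = 0.0527) did not pass, although the groups did not overlap. It passed under 6 of 10 other limma settings that used all arrays, with values from −1.62 to −0.98, and not in the methods' t-test before or after adjustment (adjusted p = 0.194).

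The serum amyloid A proteins are apolipoproteins of the acute phase that ride on HDL, and their 4 genes lie close together on chromosome 7. None of their 6 probes passed the test. Saa1 had scaled levels of 4.07 and 4.59 in the control livers and 4.10 and 3.86 in the LB1 livers with 1 probe, a difference of −0.35 (SE 0.27, adjusted p = 0.354), and −0.54 (SE 0.30, adjusted p = 0.204) with the other. Saa2 had 3.70 and 4.85 against 3.58 and 4.42, a difference of −0.28 (SE 0.50, adjusted p = 0.685), and its control livers differed from each other by more than the groups did. Saa3, which macrophages and fat also make, differed by −0.66 (SE 0.26, adjusted p = 0.108). The accessions that the files give for the Saa3 probe belong to both Saa3 and Saa1 in RefSeq, so its level is uncertain between the genes. Its sequence, at chr7:53968031-53968090 on the minus strand, is given for that reason.
Saa3 probe: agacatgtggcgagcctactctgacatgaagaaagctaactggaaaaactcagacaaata
Saa4, the form made constitutively, gave probes of opposite sign. At chr7:53984760-53984819 the scaled levels were 5.08 and 5.57 in the control livers and 5.99 and 6.04 in the LB1 livers, a difference of 0.69 (SE 0.26, adjusted p = 0.0953). At chr7:53983662-53983721 they were 4.17 and 4.86 against 4.33 and 4.06, a difference of −0.32 (SE 0.31, adjusted p = 0.454). The first probe separated the groups and the second did not, and the probes lay 1.01 apart in their difference. Under other limma settings that used all arrays, Saa3 was called lower in 3 of 10 and the second Saa1 probe in 3 of 9. The first Saa1 probe was called lower in 2 of 10 and the second Saa4 probe in 1 of 9. The first Saa4 probe was called higher in 1 of 10, and Saa2 was called in 0.

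The orosomucoids, acidic glycoproteins that carry basic drugs in plasma, did not pass either. Orm1 differed by −0.39 (SE 0.33, adjusted p = 0.386), Orm2 by 0.37 (SE 0.44, adjusted p = 0.534) and Orm3 by 0.77 (SE 0.36, adjusted p = 0.152). Orm1 was called lower under 3 of 10 other limma settings that used all arrays, and Orm2 and Orm3 were called under 0. The control livers differed from each other by more than the groups did for Orm1 and Orm2: Orm1 had 4.02 and 4.81 in control and 3.96 and 4.10 in LB1, and Orm2 had 4.50 and 5.51 in control and 5.02 and 5.72 in LB1. Lcn2, the lipocalin that withholds bacterial iron carriers, had −1.77 and −0.53 in the control livers and −2.10 and −2.32 in the LB1 livers. Both LB1 livers were below, and the difference of −1.06 (SE 0.45, adjusted p = 0.122) did not pass.

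Steap4, a metalloreductase of the cell membrane that reduces iron and copper and responds to inflammatory cytokines, had the widest gap of the metal-handling members. Its brighter probe, at chr5:7981239-7981298, had scaled levels of 0.84 and 1.30 in the control livers and −0.69 and −1.58 in the LB1 livers. The difference was −2.21 (SE 0.38, adjusted p = 0.0232), a 4.61-fold lower level. The dimmer probe spans exons, from chr5:7978532 to 7980313, and is shown as a second reading of the gene.
Steap4 probe 2: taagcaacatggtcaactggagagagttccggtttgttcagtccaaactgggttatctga
It had −1.28 and −0.81 against −2.42 and −3.63, a difference of −1.98 (SE 0.46, adjusted p = 0.0339), and on LB1 replicate 2 it was not well above background. Within replicate number 1 the probes differed by −1.53 and −1.15, and within replicate number 2 by −2.88 and −2.82. The brighter probe was called lower under all 10 other limma settings that used all arrays, from −2.84 to −1.44, and not by the methods' t-test after Benjamini-Hochberg adjustment (adjusted p = 0.162). The dimmer one missed the threshold with the normexp correction (−0.11, adjusted p = 0.592), with the series table (−0.47, adjusted p = 0.0707) and with the methods' t-test before and after adjustment (adjusted p = 0.201).

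The other haem, copper and metal proteins were bright, and most were at or near the top of the scanner's range. Hp, haptoglobin, which binds free haemoglobin, was saturated on all 4 arrays: it read 59479 and 62596 on the control arrays and 60027 and 61630 on the LB1 arrays. The scaled difference of 1.92 is therefore the gap between the 75th percentiles and no measure of the gene. Hpx, hemopexin, which binds free haem, was saturated on both control arrays, at 74053 and 75342, and read 34683 and 26929 on the LB1 arrays. Its difference of 0.63 (SE 0.26, adjusted p = 0.115) is an upper limit. Cp, the copper-carrying ferroxidase ceruloplasmin, was saturated nowhere and had 6.60 and 6.81 against 7.21 and 7.61, a difference of 0.70 (SE 0.25, adjusted p = 0.0863). The metallothioneins bind zinc and copper. Mt1 differed by 0.18 (SE 0.34, adjusted p = 0.702) over 10 spots per array, and Mt2, saturated on control replicate 2, by 0.95 (SE 0.27, adjusted p = 0.0527).

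The inter-alpha-trypsin inhibitor heavy chains are carried on hyaluronan and stabilise the extracellular matrix, and 3 of the 4 genes lie together on chromosome 14. Itih1 fell. Its probe crosses an exon junction, from chr14:31746051 to 31746567 on the minus strand, and is shown as the reading of the only heavy chain called in the main limma fit.
Itih1 probe: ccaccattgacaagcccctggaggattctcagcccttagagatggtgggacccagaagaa
Itih1 had scaled levels of 4.84 and 5.16 in the control livers and 3.14 and 2.77 in the LB1 livers. The difference was −2.04 (SE 0.26, adjusted p = 0.0211), a 4.12-fold lower level, with −1.70 and −2.39 within the replicate numbers. Itih4, at chr14:31709897-31709956, had 4.94 and 5.66 against 4.44 and 4.96, a difference of −0.60 (SE 0.35, adjusted p = 0.225), and its groups overlapped. Itih3, at chr14:31721841-31721900, was saturated on both control arrays, at 68640 and 67266, and read 26260 and 14970 on the LB1 arrays. Its difference of 0.15 (SE 0.21, adjusted p = 0.606) is an upper limit, and it turned to −0.43 (adjusted p = 0.0188) with normexp and −0.78 (adjusted p = 0.0475) with quantile normalization. Itih2, on chromosome 2, differed by −0.12 (SE 0.22, adjusted p = 0.691). Under other limma settings that used all arrays, Itih4 was called lower in 3 of 10 and Itih2 in 1 of 10.

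Among the serpins, Serpina3n, a secreted inhibitor of cathepsin G and related proteases that inflammation induces strongly, had the largest lower difference of all 41 tested member probes. Its scaled levels were 4.78 and 5.10 in the control livers and 2.80 and 2.54 in the LB1 livers. The difference was −2.27 (SE 0.25, adjusted p = 0.0201), a 4.84-fold lower level, with −1.98 within replicate number 1 and −2.57 within replicate number 2. Before scaling the probe read 11320 and 14269 on the control arrays and 1026 and 468.5 on the LB1 arrays. The probe lies at chr12:105651918-105651977, next to those of its closest relatives in the same cluster. Serpina3m, at chr12:105632342-105632400, was saturated on both control arrays, at 59443 and 62584, and read 52076 and 10713 on the LB1 arrays, so its LB1 livers lay on either side of the control livers after scaling. Serpina3k, at chr12:105583645-105583704, was saturated on both control arrays, at 73953 and 75210, and read 66038 and 41060 on the LB1 arrays. Its second probe, at chr12:105583910-105583969, was saturated on 3 arrays, with 58500 and 58305 on the control arrays and 58352 and 25408 on the LB1 arrays. The differences of 1.40 and 1.32 were called higher. The first is an upper limit, and the second, with LB1 replicate 1 saturated too, bounds the change in neither direction. After quantile normalization the first was −0.12 and the second 0.35, neither called. Serpina3g, found mainly in leukocytes, differed by −0.32 (SE 0.37, adjusted p = 0.521). Whether the probes tell these close relatives apart was not tested.

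Serpina10, the inhibitor of activated coagulation factor X that works with protein Z, was read by a pair of probes that differed in call. The probe at chr12:104866454-104866513 carries a RefSeq accession of Serpina10, and the probe at chr12:104853280-104853339 carries none. The first is shown because the call rests on it alone.
Serpina10 probe 1: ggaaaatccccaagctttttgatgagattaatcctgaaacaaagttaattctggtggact
It had scaled levels of 2.70 and 2.96 in the control livers and 1.74 and 0.79 in the LB1 livers, a difference of −1.56 (SE 0.37, adjusted p = 0.0358), with −0.96 and −2.17 within the replicate numbers. The second probe had 0.43 and 0.96 against 0.40 and 0.80, a difference of −0.10 (SE 0.29, adjusted p = 0.808). The groups were apart with the first and overlapped with the second. Serpina6, corticosteroid-binding globulin, was saturated on both control arrays, at 73718 and 72242, and read 49450 and 28144 on the LB1 arrays. Its difference of 0.95 (SE 0.21, adjusted p = 0.0305) was called higher but is an upper limit, and quantile normalization gave −0.40. Serpina1b, an alpha-1-antitrypsin that inhibits neutrophil elastase, was saturated on both control arrays too, at 74812 and 72316, and read 33735 and 15202 on the LB1 arrays. Its difference of 0.22 (SE 0.23, adjusted p = 0.468) is an upper limit, and it was −0.89 (adjusted p = 0.0455) after quantile normalization. Serpina1b has near-identical copies in the mouse, and its probe carries no RefSeq accession, so its reading is uncertain among them.

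Of the 2 negative acute phase proteins on the list, Alb could not be measured and Ttr did not pass the test. Alb was saturated on all 4 arrays, with processed signals of 72150 and 71130 on the control arrays and 72932 and 70387 on the LB1 arrays. Its scaled difference of 1.92 is the gap between the 75th percentiles, as for Hp. Ttr, the thyroxine and retinol carrier transthyretin, was within range, with 5.03 and 4.90 in the control livers and 5.02 and 4.65 in the LB1 livers. Its difference was −0.13 (SE 0.24, adjusted p = 0.694), and the groups overlapped. Under other limma settings that used all arrays it ranged from −0.77 to −0.13. It was called lower in 1 of 10, with normexp (−0.69, adjusted p = 0.0136).

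**Figure D3:**
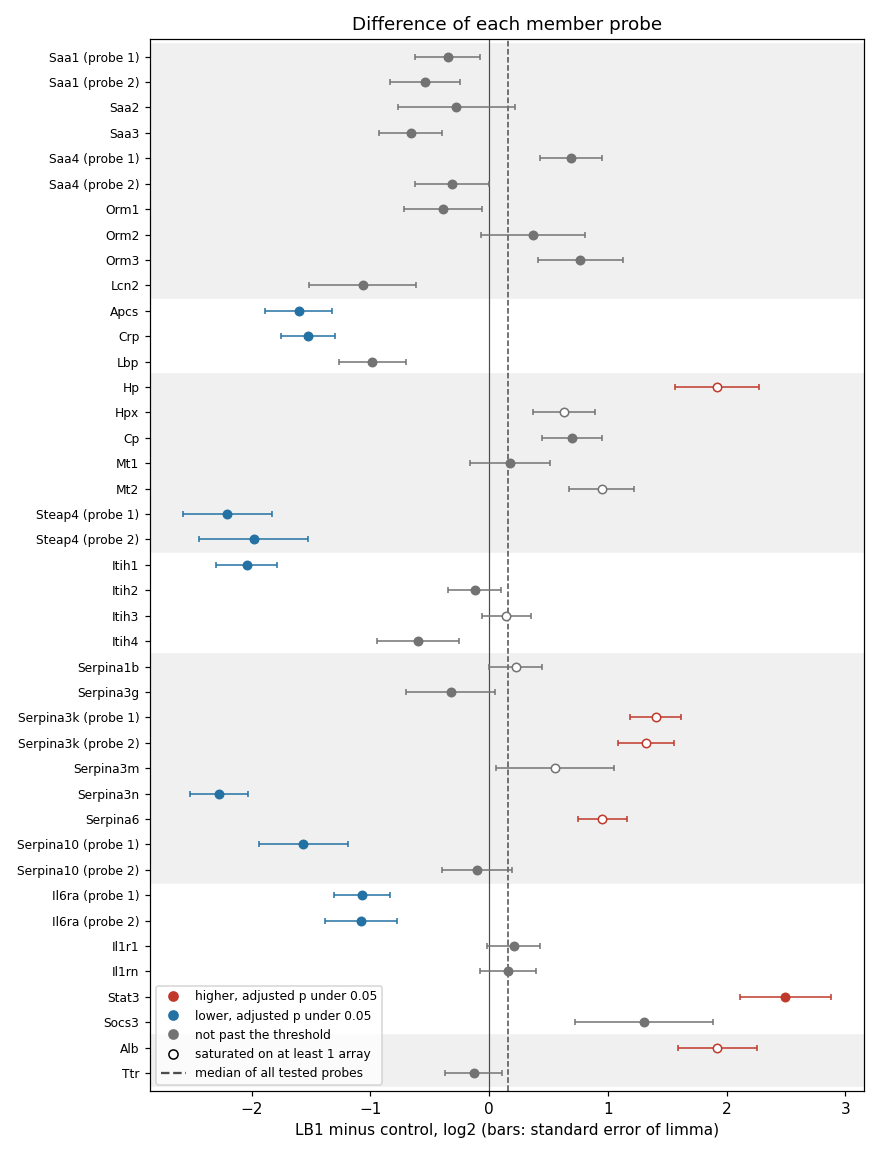
Difference of each tested member probe (LB1 minus control, log2 of scaled levels) with the limma standard error as bars, n = 2 livers in each group, open where saturated on at least 1 array. The 9 blue probes run from −2.27 to −1.07, Stat3 is the only filled red point at 2.49, and the dashed line marks the median of all tested probes at 0.16.

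The 9 lower probes differed by −2.27 to −1.07, which is 2.10-fold to 4.84-fold. Within replicate number 1 they ranged from −1.98 to −0.96 and within replicate number 2 from −2.88 to −0.91, so all 9 were lower on each slide. With the replicate number as a block all 9 stayed past the threshold, at adjusted p-values of 0.0308 to 0.0422. Serpina3n, Itih1, Apcs, Crp, Stat3, the first probe of Serpina10 and the brighter probe of Steap4 were called in the same direction under all 10 other limma settings that used all arrays. With the methods' t-test all of them lost the call after Benjamini-Hochberg adjustment (adjusted p of 0.132 to 0.195), and the first probe of Serpina10 also missed its unadjusted threshold. Over the limma settings Stat3 ranged from 1.86 to 2.49, Serpina3n from −2.91 to −2.27 and Apcs from −2.24 to −1.61. Of the 6 genes with a pair of tested probes, 5 gave the same sign and 5 the same call, with Saa4 and Serpina10 as the exceptions.

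**Figure D4:**
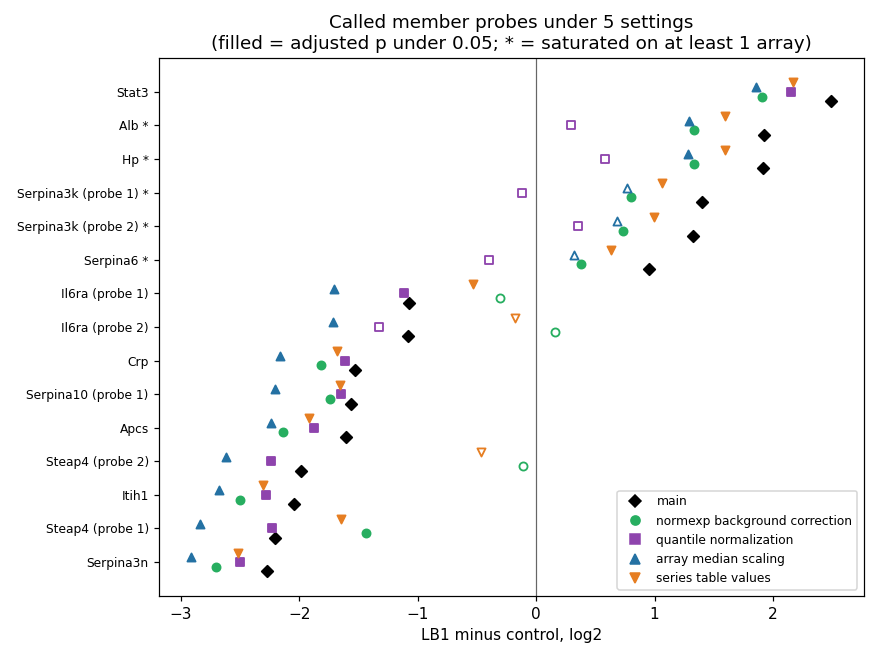
Difference (LB1 minus control, log2) of the 15 called member probes under 5 settings: the 75th percentile scaling of the text (diamonds), normexp background correction, quantile normalization, array median scaling and the values of the series table. Filled symbols mark an adjusted p under 0.05 and asterisks probes saturated on at least 1 array; Stat3 and the 6 lower genes from Crp to Serpina3n are filled under all 5 settings with their brighter probe, and the 5 saturated probes are open after quantile normalization.

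Promoters were read for the motifs of the factors that drive the response. RefSeq promoters (GRCm38.p6, 250 bases before the start) were found for 28 of the 36 genes, as 32 promoters of 32851 in the table. On either strand, the STAT motif TTCNNNGAA was in 7.02% of all promoters and in 15.6% of the member promoters: those of Apcs, Itih4, Serpina3g, Socs3 and Steap4. The C/EBP motif TTGCNNAA was in 9.56% of all and 46.9% of the member promoters (15 genes, among them Saa1, Saa2, Saa3, Saa4, Orm2, Orm3, Lcn2 and Steap4). The NF-kB motif (GGG, then any 2 bases, then TTTCC) was in 1.41% of all and 12.5% of the member promoters (Il1rn, Serpina3g, Serpina3n and Steap4). Of the 6 genes called lower that have a promoter in the table, Apcs and Steap4 held a STAT motif, Steap4 a C/EBP motif, and Serpina3n and Steap4 an NF-kB motif. Crp, Il6ra and Itih1 held none of the 3, and neither did Stat3. Shown are Steap4, the 1 member with all 3 motifs, and Apcs, with the matches in capitals. Steap4 lies at chr5:7960222-7960471 on the plus strand, with the NF-kB match starting 226, the STAT match 116 and the C/EBP match 87 bases before the start. Apcs lies at chr1:172895055-172895304 on the minus strand, with its STAT match 244 bases before the start.
Steap4 promoter: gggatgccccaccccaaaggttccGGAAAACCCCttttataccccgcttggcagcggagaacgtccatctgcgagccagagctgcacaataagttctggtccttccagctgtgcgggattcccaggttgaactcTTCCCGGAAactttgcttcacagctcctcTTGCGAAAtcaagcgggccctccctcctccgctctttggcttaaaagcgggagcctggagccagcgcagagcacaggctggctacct
Apcs promoter: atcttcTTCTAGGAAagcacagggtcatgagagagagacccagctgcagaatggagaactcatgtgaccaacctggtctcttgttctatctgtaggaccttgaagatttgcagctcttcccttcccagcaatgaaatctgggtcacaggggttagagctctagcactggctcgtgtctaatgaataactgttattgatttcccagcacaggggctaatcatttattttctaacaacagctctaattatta
The promoters of Saa1 (chr7:46742981-46743230, minus strand) and Saa2 (chr7:46751583-46751832, plus strand) were 94.8% identical over 251 aligned columns, and the same C/EBP match stands 182 and 183 bases before their starts. They are shown because the genes are near copies that lie head to head.
Saa1 promoter: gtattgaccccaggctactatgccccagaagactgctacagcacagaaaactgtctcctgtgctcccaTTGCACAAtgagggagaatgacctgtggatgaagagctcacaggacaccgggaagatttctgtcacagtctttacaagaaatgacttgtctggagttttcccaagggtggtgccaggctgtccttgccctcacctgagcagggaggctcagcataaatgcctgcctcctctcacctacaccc
Saa2 promoter: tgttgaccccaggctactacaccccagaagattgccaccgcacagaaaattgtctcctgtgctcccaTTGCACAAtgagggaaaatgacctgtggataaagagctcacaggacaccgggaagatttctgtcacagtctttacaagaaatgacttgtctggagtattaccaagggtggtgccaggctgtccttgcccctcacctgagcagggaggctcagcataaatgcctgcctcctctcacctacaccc
A match is a description of the sequence. No binding was measured on these livers.

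Other genes of the same response, from lists outside the 36, were split in the same way by saturation. Of 22 further positive acute phase genes tested, 11 were called higher, each saturated on at least 1 array, 3 lower and 8 neither, beside 19.2% and 13.2% of all tested probes. The 3 lower were Fgl1, a fibrinogen-like protein of hepatocytes (−1.87, adjusted p = 0.0323), Serping1, the C1 inhibitor (−1.06, adjusted p = 0.0369), and Cd14, the lipopolysaccharide co-receptor (−0.78, adjusted p = 0.0492), and none of these was saturated. All 10 negative acute phase genes tested were called higher, 8 of them saturated. The other 2 were Fetub, a plasma protease inhibitor (1.71, adjusted p = 0.022), and Igf1, the growth factor (1.14, adjusted p = 0.0325). Fetub carried no saturation flag but read 67996 and 75035 on the control arrays and 69388 and 55100 on the LB1 arrays, as bright as flagged probes, and quantile normalization gave it 0.15 (adjusted p = 0.584). Igf1 gave 0.50 there (adjusted p = 0.141). After quantile normalization the first list had 1 higher and 4 lower, and the second 0 and 0.

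Of 28 cytokine signalling genes tested, none was saturated, 4 were called higher, 3 lower and 21 neither, where 18.7% and 13.3% of all unsaturated probes were called. Among the higher were Socs1, a feedback inhibitor of JAK kinases (1.99, adjusted p = 0.0232), the transcription factor Cebpb (1.49, adjusted p = 0.0215), and Nfkbia, the inhibitor of NF-kB (1.28, adjusted p = 0.0367). Lower were the kinases Jak2 (−1.35, adjusted p = 0.035) and Tyk2 (−1.03, adjusted p = 0.0278) and the interleukin-1 receptor partner Il1rap (−1.20, adjusted p = 0.0309). Il6st, the signalling partner of Il6ra, differed by −0.94 (adjusted p = 0.0617). Il6 and Tnf were well above background on none of the 4 arrays. Of 19 other serpins tested, 7 were called higher and 5 lower, beside 19.2% and 13.2% of all tested probes. The unsaturated ones included Serpinh1 (2.23) and Serpina9 (1.57) among the higher, and Serpina7 (−1.73), Serpinb6a (−1.64), Serpinb9 (−1.34) and Serping1 among the lower. Before scaling Serpina9 was dim, at 27.9 and 44.7 on the control arrays and 31.8 and 24.1 on the LB1 arrays. Quantile normalization gave it 1.16 (adjusted p = 0.0837, not called).

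Markers of the cells a liver sample can hold were read beside these results. Over all tested probes 19.2% were called higher and 13.2% lower, and over all unsaturated ones 18.7% and 13.3%. All 9 hepatocyte markers with a probe were well above background on all 4 arrays, and 6 were saturated on at least 1. Of the 9, 2 were called higher, 1 lower and 6 neither, and each call was on a saturated probe. Of 11 Kupffer cell and macrophage markers tested, 0 were called higher (limma, adjusted p) and 2 lower, Vsig4 (−1.59) and C1qa (−0.79), and their summed scaled signal was 77.7 and 84.1 in the control livers and 80.3 and 83.4 in the LB1 livers. Of 8 mesothelial markers tested 6 were called higher, and the median difference of the 8 was 4.70. The called ones were Msln at 6.04, Rspo1 at 5.93, Muc16 at 5.30, Krt7 at 4.69, Krt19 at 4.26 and Krt18 at 1.24. Upk3b (4.71, adjusted p = 0.0556) and Krt8 (0.50, adjusted p = 0.183) were not called. Over all 11 mesothelial markers with a probe the summed scaled signal was 168 and 198 against 348 and 460, most of it from Krt8 and Krt18, which hepatocytes also express. Msln differed between the control livers too, at scaled levels of −0.89 and −4.17, against 2.65 and 4.37 in LB1, and Bnc1 was at background on all arrays. Of 5 neutrophil and monocyte markers tested 1 was called higher (Mpo, 2.01), and their median difference was 1.67, with S100a8 at 1.75 and S100a9 at 1.67, neither called. Over all 8 neutrophil and monocyte markers with a probe the sums were 27.2 and 35.0 against 51.2 and 47.8, most of it from Ly6c2 (0.46, not called). Before scaling Mpo was dim, at 28.8 and 22.8 on the control arrays and 24.5 and 30.3 on the LB1 arrays. Quantile normalization gave Mpo 1.48 (adjusted p = 0.0956, not called). Of 4 exocrine pancreas markers tested 2 were called higher, at sums of 1.09 and 0.754 against 1.74 and 1.45, and 6 others were at background on all arrays. Of 4 adipocyte markers tested 1, Car3, was called higher and was saturated. The fat hormones Lep and Retn were at background on all arrays. The part of these cells in the member differences was not tested.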

How the data were processed

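Liver RNA of 2 control and 2 LB1 mice was measured on 4 Agilent arrays of 60-base probes with 1 dye, Cy3. The deposited scanner files hold linear spot intensity from Feature Extraction 10.5.1.1, with background removed and no scaling between arrays, per the file headers (the design text names another version). The deposited series table holds the mean spot intensity rounded to whole numbers: 100% of values lay within 0.5 of it, with column medians of 70, 65, 62 and 45. The spread within a group holds animal and technical variation, and 2 arrays per group limit the precision.

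After removal of control and outlier spots, log2 signals were set relative to the 75th percentile of each array's 43379 spots and averaged per probe. A probe entered the limma 3.58.1 fit (lmFit, eBayes; R 4.3.3) if it had a value on every array and both arrays of 1 group or the other were well above background. Benjamini-Hochberg adjustment ran over all 22957 such probes, and a call is an adjusted p under 0.05. Where both control arrays and no LB1 array were saturated, a difference above 0 is only an upper limit. With an LB1 array saturated too, it bounds nothing. The fit was tested on simulated data. The members, gene lists, marker lists and alternatives were chosen with earlier results of these data known. All members are accounted for; those called, with probes that disagree, or saturated on both arrays of a group have full values. Other listed genes were named if called and unsaturated, at most 4 per direction, by the smallest adjusted p (2 genes that this rule names are not reported here), and Il6st, Il6, Tnf, Mpo, Vsig4, C1qa, Bnc1, Car3, Lep, Retn and the named mesothelial and neutrophil markers were added after their values were seen.

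Per the file headers, arrays that share a replicate number, 1 per group, share a slide and a scan. The deviations of same-numbered arrays from their group means correlated at 0.151 over probes, and the numbers were treated as a block in an alternative fit. Of the 42 member probes, 38 carry a RefSeq accession whose symbol (assembly GRCm38.p6) matches the file's name, and 10 span an exon junction. Probe positions are on mm9 as the files give them, counted from 1. Alternatives were quantile normalization, scaling to the array median, normexp (offset 50), other filters, eBayes with trend and robust settings, the methods' t-test (unadjusted, at least 2-fold), the series table, the block, unsaturated probes, 1 probe per gene, and each array left out.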

Additional observations from a re-analysis of the deposited data

How the results depend on the processing

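Counts over the whole array and over the members moved with the scaling and with the control arrays, while the lower calls of Serpina3n, Itih1, Apcs, Crp, Serpina10 (first probe) and Steap4 (brighter probe) and the higher call of Stat3 stood under all 10 limma alternatives that used all 4 arrays, and not with the methods' t-test after Benjamini-Hochberg adjustment (adjusted p of 0.132 to 0.195). Under normexp 11343 probes were called higher and 4640 lower, with 16 members lower and a member median of −0.31. Under quantile normalization 2514 were higher over the array and 1 among the members, with a member median of −0.56. Under the array median the counts were 1650 and 7116 over the array and 3 and 15 among the members, with a median of −0.76. With no filter on dim probes 17541 were higher, and 10685 with the values of the series table. Without saturated probes 1 member was higher, with a median of −0.35. With 1 probe per gene 1583 were lower, and the member median turned to 0.15. The methods' t-test at its unadjusted threshold called 2228 higher and 1881 lower over the array, and 4 and 6 among the members. After Benjamini-Hochberg it called 0 and 0 over the array and 0 and 0 among the members, of which 6 and 6 had an unadjusted p under 0.05. Leaving out 1 array moved the counts over the array to 0 to 6009 higher and 1 to 5014 lower, those of the members to 0 to 10 higher and 0 to 9 lower, and the member median to −0.25 to 0.088. Each fit without an array assumes that the lone liver of that group varies like the pair of the other.

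The replicate number as a block gave 4189 higher and 2767 lower over the array and 6 and 9 among the members, and changed no member call. Within replicate number 1 the member median was 0.031, and within replicate number 2 it was −0.21.

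Some member differences turned sign, none of them a called unsaturated one except the second Il6ra probe. With normexp they were Mt1 −0.41, Orm2 −0.23, Serpina1b −0.36, Itih3 −0.43, Serpina3m −0.027, Il1r1 −0.24, Lcn2 0.090 and the second Il6ra probe 0.16. With quantile normalization they were Mt1 −0.26, Hpx −0.68, Serpina1b −0.89, Serpina6 −0.40, Itih3 −0.78, Serpina3m −0.33 and the first Serpina3k probe −0.12. With the array median they were Mt1 −0.46, Orm2 −0.27, Hpx −0.0024, Serpina1b −0.41, Itih3 −0.49, Serpina3m −0.082, Il1r1 −0.43 and Il1rn −0.48. With the series table they were Mt1 −0.15, Serpina1b −0.10, Itih3 −0.17 and Il1r1 −0.060. The cause of these turns was not tested. Leaving out 1 array gave ranges that crossed 0 for Mt1 (−0.17 to 0.52), Orm1 (−0.78 to 0.0094), Orm2 (−0.13 to 0.87), Saa2 (−0.85 to 0.30), the second Saa4 probe (−0.66 to 0.029), Itih2 (−0.25 to 0.0056), Serpina3g (−0.74 to 0.088), Serpina3m (−0.16 to 1.26), the second Serpina10 probe (−0.36 to 0.17) and Ttr (−0.32 to 0.058).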
